A study of Chlamydomonas reinhardtii with 2 samples.

Results

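The deposited table describes 31 of 17147 gene loci of the green alga Chlamydomonas reinhardtii as ion channels, antiporters or ABC transporters. Members were taken by the wording of the table's short gene description, which had to hold "ion channel", "channel protein", "antiporter" or "ABC transporter", or by a TRP symbol described as a transient receptor potential channel. Phosphate symporter genes (PTB and PTA) and HLA3 were left out by the same rule. The members are 21 channel genes, 2 antiporter genes and 8 ABC transporter genes, and 6 of the 31 have no symbol and are called by their locus name. The rule uses no measured value.

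RNA was sequenced from 2 cultures of the wild-type strain CC-1690 (21gr). Cells in the middle of logarithmic growth were moved for 24 h to acetate medium that contained 1.1 mM phosphate (replete) or had none added (deprived), and were kept at 25 °C with shaking at 200 rpm. Light was continuous, at 70 µmol per square metre each second. Each condition had 1 library, so no value below has a replicate error, no test between conditions was possible, and each difference is a difference between these 2 libraries. Levels are the authors' RPKM values, which divide reads by transcript length and library size and so can be compared between genes. The replete column added up to 901012 RPKM and the deprived column to 855498 RPKM.

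Channels open a path along which ions flow down their gradient. Antiporters use the gradient of one solute to move another in the opposite direction. ABC transporters spend ATP to carry lipids, metals, conjugates and other compounds across a membrane. In Chlamydomonas, channels are best known for calcium and proton currents that set flagellar beating, deflagellation and the response of the eyespot to light. Transient receptor potential (TRP) channels are a family of cation channels that open to mechanical, osmotic, thermal or chemical signals in many eukaryotes.

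The clearest difference among the members was in the TRP family, where TRP5 and TRP13 were far higher in the deprived library. The third gene at least 2-fold higher was Cre17.g725150, described as an MDR-like ABC transporter, the kind that includes P-glycoprotein. The other 26 members that passed a filter on low values lay within 2-fold, and COP4, the gene of the light-gated cation channel channelrhodopsin-2, had the lowest fold. Each log2 fold compares the deprived value with the replete one after adding 1 RPKM to both, which understates differences of weakly expressed genes, and a mean of at least 1 RPKM over both libraries was required for counting. Of the 31 members, 29 passed that filter, TRP13 only through its deprived value. Of these 29, 3 were 2-fold higher or more (10.3%) and 0 were 2-fold lower or more, beside 5.59% higher and 1.64% lower of all 13855 genes that passed. The members' median log2 fold was 0.24, and that of all genes was 0.14. Folds above 0 were found in 21 of the 29, or 72.4%, beside 62.0% of all genes. With both libraries scaled to a common median, 16 of the 29 and 43.9% of all genes were above 0.

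**Figure D1:**
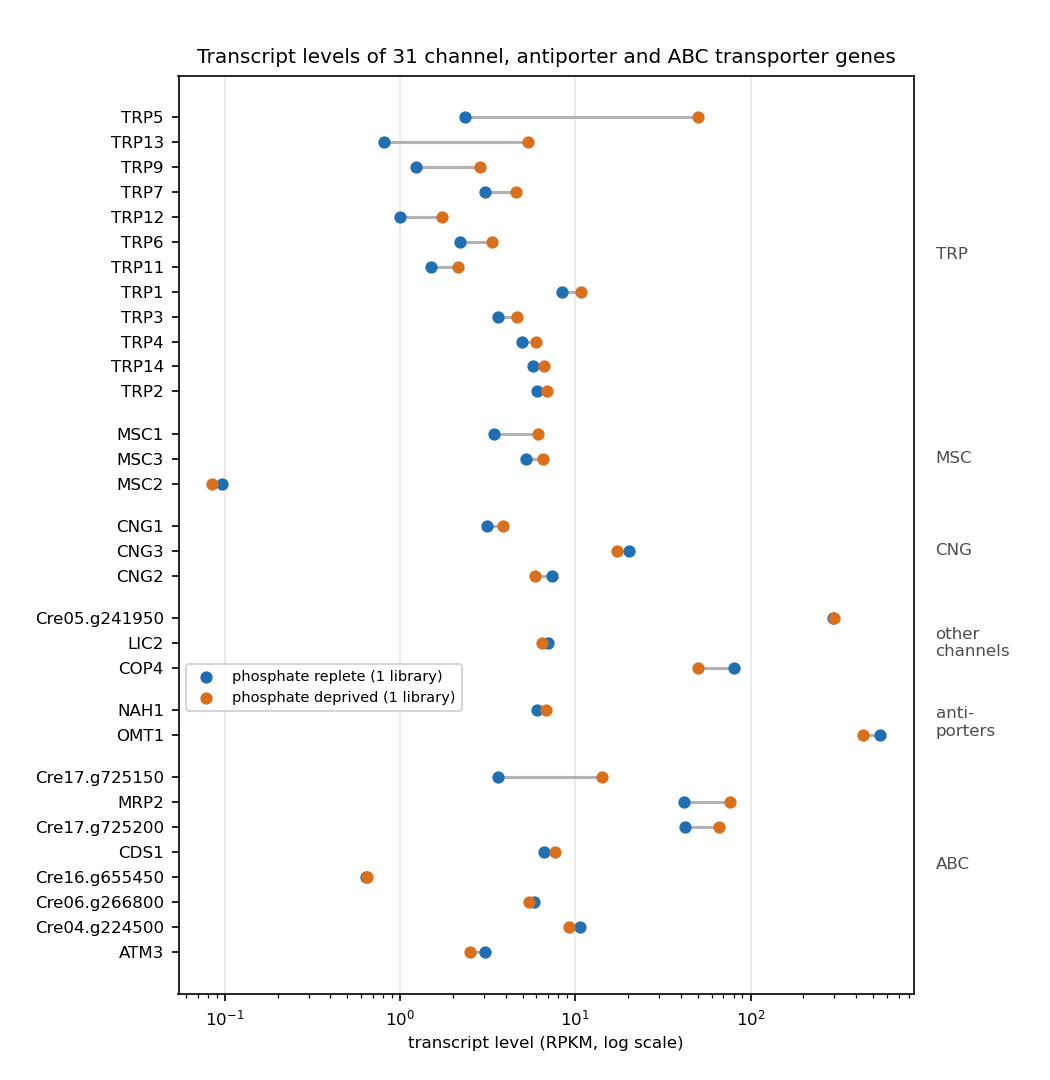
Transcript level in RPKM (log axis) of the 31 members, grouped by family, in the replete (blue) and deprived (orange) library, with 1 library per condition. The grey line joins the 2 values of a gene. TRP5, TRP13 and Cre17.g725150 have the longest lines to the right, OMT1 has the highest values and MSC2 the lowest.

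Within the channels, the 12 TRP genes were weakly expressed in the replete library, from 0.807 RPKM for TRP13 to 8.42 RPKM for TRP1. TRP5 (Cre09.g398400) had 2.34 RPKM with phosphate and 50.3 RPKM without it. It was 24th of the 31 members by level in the replete library and 5th in the deprived library. Its log2 fold of 3.94 was the 20th highest of the 13855 genes that passed, and the 8th highest of those with a symbol. The table describes its C-terminal region as similar to calcium channels of the TRP kind, and its N-terminal region as unlike other known proteins.

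TRP13 (Cre03.g175050), described as weakly similar to TRP channels, had 0.807 RPKM with phosphate and 5.35 RPKM without it, for a log2 fold of 1.81. Its mean passed the filter through the deprived value, since the replete value lay below 1 RPKM. TRP9 (Cre13.g599600) had 1.24 and 2.87 RPKM, a log2 fold of 0.79. Its ratio without a pseudocount was 2.32, so whether TRP9 counted as 2-fold higher depended on the pseudocount.

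The other 9 TRP genes differed less, with log2 folds from 0.16 for TRP2 to 0.46 for TRP7. TRP7 (Cre28.g776450) had 3.06 and 4.61 RPKM. TRP12, like TRP13 only weakly similar to the family, had 1.002 and 1.74 RPKM (log2 fold 0.45). TRP6, in which the table notes WD-40 repeats ahead of the channel region, had 2.19 and 3.33 RPKM (0.44). These 3 were all higher in the deprived library, by less than 2-fold.

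TRP11, a channel of the flagellum known from work on mechanical sensing in this alga, had 1.499 RPKM with phosphate and 2.15 RPKM without it (log2 fold 0.33). TRP1, the most abundant of the family in the replete library and described as expressed in high light, had 8.42 and 10.8 RPKM (0.33). TRP3, described as similar to osmosensitive channels, had 3.61 and 4.63 RPKM (0.29). The remaining TRP genes had the smallest folds of the family. TRP4 had 4.93 and 5.94 RPKM, TRP14 had 5.72 and 6.65 RPKM, and TRP2 had 6.04 and 6.88 RPKM.

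Summed over the 12 genes, TRP transcripts came to 40.9 RPKM with phosphate and 105 RPKM without it. TRP5 alone made up 5.74% of that sum with phosphate and 47.8% without it, a share that no scaling between libraries can change. Without TRP5 the sums were 38.5 and 55.0 RPKM. All 12 genes had a log2 fold above 0, beside 62.0% of all genes, and the family median was 0.39. Scaling both libraries to the same median RPKM moved the median fold of all genes from 0.14 to -0.07. After it, 10 of the 12 were above 0, beside 43.9% of all genes, and the family median was 0.20. TRP2 and TRP14 were then at -0.06 and -0.04.

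How far counting error reaches can only be approximated, since the table gives neither reads nor lengths. Many low values look as if a fixed count had been added to each gene, an inference from the values that no source used here states. Under that reading, and with a length scale inferred from the same values, 1 RPKM can be turned into reads. For a transcript of 1000 bases it stands for about 10.4 reads in the replete and 12.3 reads in the deprived library. At that assumed length, TRP5 would rest on 27 and 717 reads, a ratio of 23.1 per depth with a 95% exact binomial interval from 15.8 to 35.3. The deposited RPKM values, which under this reading still hold the added count, have a ratio of 21.4. TRP13 would rest on 8 and 75 reads, a ratio of 8.16 with an interval from 3.94 to 19.6, against 6.64 from its RPKM values. Ratios printed with an interval in what follows are those of the approximated reads. Longer transcripts would have narrower intervals and shorter ones wider intervals. These intervals cover counting error only, and the spread between cultures was not measured.

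By the same measure, the interval lay above a ratio of 1 for 8 of the 29 members that passed the filter and below 1 for 2, beside 31.3% above and 14.7% below among all 13855 genes. In the deposited values the members' shares were thus no larger than those of genes in general. For the share above 1 this did not hold after any of the 3 scalings below, where the members' share was the larger. The 8 higher members were TRP5, TRP13, TRP9, TRP7, MSC1, MRP2, Cre17.g725150 and Cre17.g725200, and the 2 lower ones were COP4 and OMT1. For TRP7 the interval began at 1.01. In the deposited values the intervals of all 8 remaining TRP genes contained 1, so their small differences could not be told from counting error at this length. These counts depended on scaling. After scaling to the same median, and likewise after trimmed mean scaling, 7 intervals lay above 1 (without TRP7) and 6 below, where CNG2, CNG3, Cre04.g224500 and Cre05.g241950 joined COP4 and OMT1. Among all genes, 18.5% lay above and 26.3% below with the first of these scalings, and 22.3% and 21.9% with the second. After scaling to a common sum, 11 lay above 1, where TRP1, TRP6 and Cre05.g241950 joined, and 2 below, beside 35.8% and 12.3% of all genes.

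**Figure D2:**
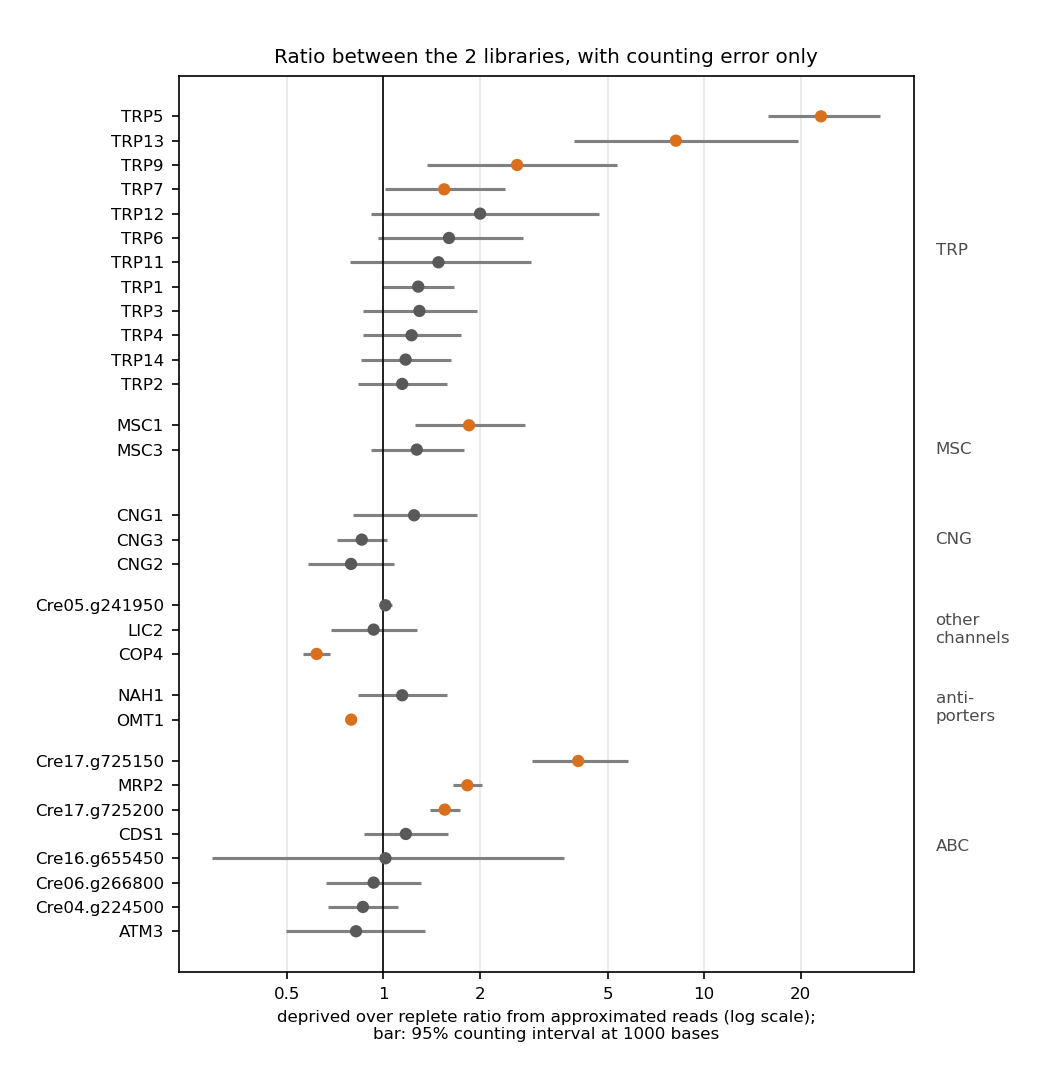
Ratio of the deprived over the replete library from approximated reads (points, log axis), for 30 members grouped by family. Bars are 95% exact binomial intervals of counting error at an assumed length of 1000 bases, and orange points are those whose bar does not reach 1. TRP5 stands apart at 23.1, and most bars of the channel families cross 1.

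Mechanosensitive channels of the MscS kind open when the membrane is stretched. In Chlamydomonas, MSC1 is known as a channel of the chloroplast. MSC1 (Cre07.g329300) had 3.41 RPKM with phosphate and 6.08 RPKM without it, for a log2 fold of 0.68 and a ratio of 1.85 (interval 1.26 to 2.77 at 1000 bases). MSC3 had 5.26 and 6.55 RPKM (log2 fold 0.27). MSC1 was thus the lower of the pair in the replete library, and both genes had about the same level in the deprived one.

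MSC2 is separated from MSC3 by 2 genes in the RefSeq gene order of assembly Chlamydomonas_reinhardtii_v5.5. It had 0.0967 and 0.0842 RPKM. These values stand in the ratio of 0.870 that 1246 genes of the table share, the pattern of a gene without reads in either library. Under that reading and the inferred length scale, the length of MSC2 would be 1662 bases. A count of 0 allows up to 3 reads, worth 0.145 RPKM with phosphate and 0.126 RPKM without it. No fold is given for it.

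Channels gated by ligands inside or outside the cell showed no member at least 2-fold different. The cyclic nucleotide gated channel genes, whose products open on binding cAMP or cGMP, went in different directions. CNG1 had 3.12 RPKM with phosphate and 3.87 RPKM without it (log2 fold 0.24). CNG2 had 7.40 and 5.86 RPKM (-0.29), and CNG3, the most abundant, had 20.2 and 17.4 RPKM (-0.21). LIC2, which resembles channels gated by neurotransmitters in animals, had 6.95 and 6.45 RPKM (-0.09). At 1000 bases the intervals of all 4 contained a ratio of 1 in the deposited values.

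COP4 (Cre02.g085257) codes for channelrhodopsin-2, which depolarises the membrane at the eyespot in light. It had 80.7 RPKM with phosphate and 50.1 RPKM without it, for a log2 fold of -0.68. The replete value was 1.61 times the deprived one, with an interval from 1.46 to 1.78 at 1000 bases in the deposited values. The log2 fold was -0.94 with a common median, -0.85 with trimmed mean scaling and -0.61 with a common sum. Channelrhodopsin-1, which serves the same light response, is coded by COP3 and is described as a proton channel, so the rule did not take it. COP3 had 176 and 258 RPKM (log2 fold 0.55). COP3 was 2.18 times as abundant as COP4 with phosphate and 5.16 times without it, a comparison within each library that does not depend on scaling between them.

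The voltage-dependent anion channel of the outer mitochondrial membrane, a porin that lets metabolites such as ATP and phosphate through, is coded by Cre05.g241950. It was the second most abundant member in both libraries, with 297 and 301 RPKM and a log2 fold of 0.02. The ratio of the libraries had an interval from 0.971 to 1.06 at 1000 bases in the deposited values. After scaling to the same median the log2 fold was -0.24, and after trimmed mean scaling it was -0.15. Scaling to a common sum gave 0.096, so the direction depended on the scale. The gene made up 63.8% of the summed RPKM of the 21 channel genes with phosphate and 59.9% without it.

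OMT1 (Cre17.g713350), an antiporter that exchanges 2-oxoglutarate and malate across the chloroplast envelope, was the most abundant member. It had 549 RPKM with phosphate and 436 RPKM without it (log2 fold -0.33), and the replete value was 1.26 times the deprived one (interval 1.22 to 1.304 at 1000 bases). The other antiporter gene, NAH1 (Cre06.g281400), resembles sodium/proton exchangers of yeast. It had 6.03 and 6.83 RPKM (0.16), and its log2 fold was -0.07 after scaling to the same median. The gap for OMT1 kept its direction under each of the 3 scalings tried.

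**Figure D3:**
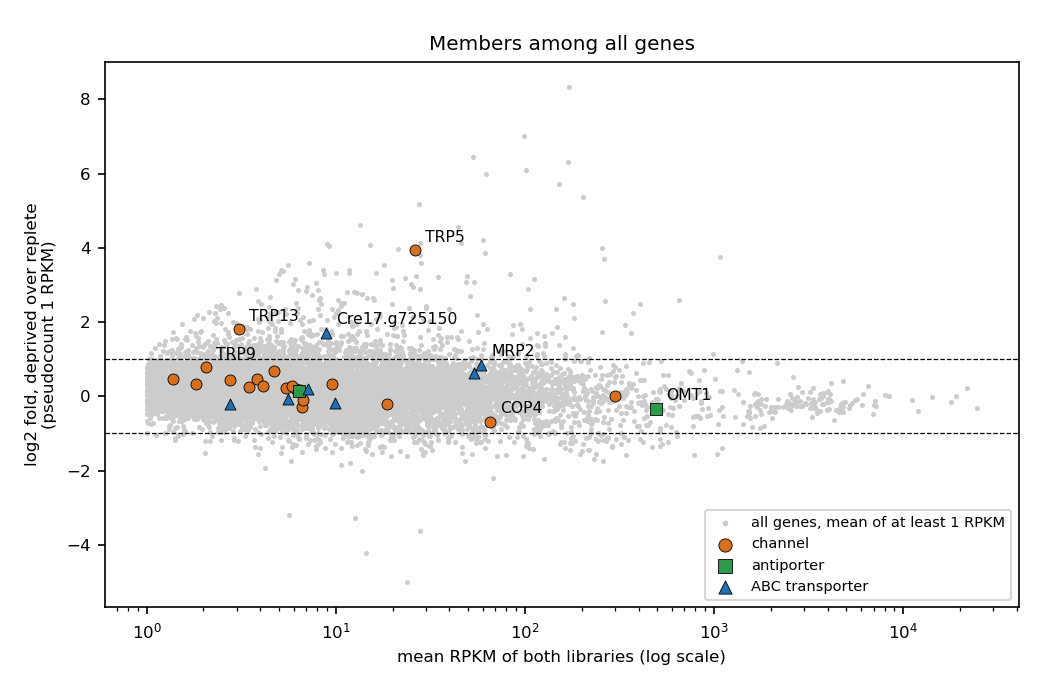
Log2 fold of deprived over replete RPKM (pseudocount of 1 RPKM) against the mean RPKM of both libraries (log axis), for all 13855 genes that passed the filter (grey) and for the 29 members that passed (channels, antiporters and ABC transporters by colour and shape). Dashed lines mark 2-fold differences. TRP5, at 3.94, lies near the upper edge of the cloud, TRP13 and Cre17.g725150 lie above the upper line, and no member lies below the lower line.

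Among the 8 ABC transporter genes, the highest folds were those of Cre17.g725150, MRP2 and Cre17.g725200. The table describes each as of a multidrug resistance kind. Cre17.g725150 had 3.62 RPKM with phosphate and 14.2 RPKM without it, for a log2 fold of 1.71. Its ratio of 4.05 had an interval from 2.90 to 5.77 at 1000 bases. Next to it, with 0 genes between them in the RefSeq gene order, lies Cre17.g725200, likewise described as MDR-like. It had 42.5 and 65.9 RPKM (0.62). Both were higher in the deprived library. The more abundant gene exceeded its neighbour 11.7 times with phosphate and 4.66 times without it. How reads shared by similar neighbouring genes were counted is not given in the sources used here, so the split between these genes is uncertain.

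MRP2 (Cre15.g645000) belongs to the multidrug resistance associated proteins, a subfamily known in plants for moving glutathione conjugates and other organic anions into the vacuole. It had 41.6 RPKM with phosphate and 75.9 RPKM without it, for a log2 fold of 0.85. Its ratio was 1.83, with an interval from 1.64 to 2.03 at 1000 bases, which leaves out the choice of scale. The log2 fold of MRP2 was 0.59 with a common median, 0.68 with trimmed mean scaling and 0.93 with a common sum. That of Cre17.g725200 was 0.36, 0.45 and 0.70 under the same scalings. MRP2 and Cre17.g725200 were the most abundant ABC transporter genes in both libraries, and both were higher in the deprived one, MRP2 by the larger ratio.

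ABC transporters linked to metals had small folds between these 2 libraries. CDS1 (Cre12.g561550), a mitochondrial transporter involved in cadmium tolerance, had 6.59 and 7.70 RPKM (log2 fold 0.20). Its relative ATM3 (Cre10.g443000) had 3.04 and 2.501 RPKM (-0.21). Cre06.g266800, described as the periplasmic part of a bacterial type of transporter for iron hydroxamate, had 5.79 and 5.41 RPKM (-0.08). The PDR-like gene Cre04.g224500, of the pleiotropic drug resistance subfamily, had 10.7 and 9.25 RPKM (-0.19). The intervals of these 4 contained a ratio of 1 in the deposited values. Those of CDS1 (0.872 to 1.59) and ATM3 (0.499 to 1.35) were wide at 1000 bases, so equal levels were not established.

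Cre16.g655450, with a pair of ABC modules per the table, stayed below the filter with 0.634 and 0.645 RPKM. Over the 7 ABC transporter genes that passed, the log2 fold had a median of 0.20. It was above 0 in 4 (57.1%), beside 62.0% of all genes. Of the 7, 1 gene was 2-fold higher or more (14.3%), beside 5.59% of all genes. After scaling to the same median the class median was -0.03, with 3 genes above 0, beside 43.9% of all genes. Summed over all 8 genes, the class had 114 RPKM with phosphate and 182 RPKM without it. That gap lay in MRP2, Cre17.g725200 and Cre17.g725150. CDS1 and Cre16.g655450 were only slightly higher in the deprived library, and Cre06.g266800, Cre04.g224500 and ATM3 were lower.

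Channel genes described in other words, which the rule does not take, form a further list of 21 that was written after values were seen. Of the 18 that passed the filter, none reached a 2-fold difference, 17 had a fold above 0 (12 with a common median and 15 with trimmed mean scaling), and the median was 0.33. Among all genes the shares above 0 were 62.0%, 43.9% and 49.9% under the same 3 scales. The voltage-gated potassium channel genes KCN1 (5.17 and 9.21 RPKM, log2 fold 0.73) and KCN3 (5.04 and 8.92 RPKM, 0.72) were higher in the deprived library, and KCN5 was lower (4.75 and 2.82 RPKM, -0.59). KCN2 and KCN4 had smaller log2 folds of 0.23 and 0.22. Counting intervals are not given for the genes of this list. All 7 voltage-gated calcium channel genes that passed had folds above 0 in the deposited values, against 5 with a common median and 6 with trimmed mean scaling. The highest of these was CAV2, which codes for a calcium channel of the flagella that acts in the light-shock response, with 5.27 and 9.38 RPKM (0.73). The TRP genes outside the rule, TRP10 and TRP15, had log2 folds of 0.33 and 0.15. None of these genes came near TRP5 or TRP13.

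Primary ion pumps set up the gradients that channels and antiporters use. Of 22 pump genes, all of which passed the filter, 2 were 2-fold higher or more, none was 2-fold lower, and the median log2 fold was 0.24. These 2 are 9.09% of the list, beside 5.59% higher and 1.64% lower of all genes. The list also holds ALA1, which transports phospholipids and not ions. Both higher genes are described as ATPases that transport calcium or other cations. Cre09.g410050 had 19.2 RPKM with phosphate and 92.2 RPKM without it (2.20), and Cre09.g410100 had 3.37 and 8.78 RPKM (1.16). PMH1, a proton pump gene of the plasma membrane, had 135 and 262 RPKM (0.95). The 13 genes for subunits of the vacuolar proton pump stayed between -0.13 and 0.40.

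Carrier descriptions outside the member and pump lists made up a list of 110 genes, which the wording of the descriptions decided. It also caught acyl carrier proteins, the phospholipid transporting ATPases ALA2 and ALA3, which are relatives of ALA1, and Cre17.g723500, described as an ATP-binding cassette transporter and so an ABC gene. Of the 102 that passed, 4 (3.92%, beside 5.59% of all genes) were 2-fold higher or more, none was 2-fold lower, and folds had a median of 0.16. The 3 largest folds were those of the sodium/sulfate transporter gene SLT1 (2.36), the mitochondrial carrier gene MITC3 (2.07, with 2.32 and 12.9 RPKM) and the urea transporter gene DUR3A (1.53, with 1.05 and 4.92 RPKM). The medians of the members, pumps and carriers lay between 0.16 and 0.24, near the 0.14 of all genes.

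**Figure D4:**
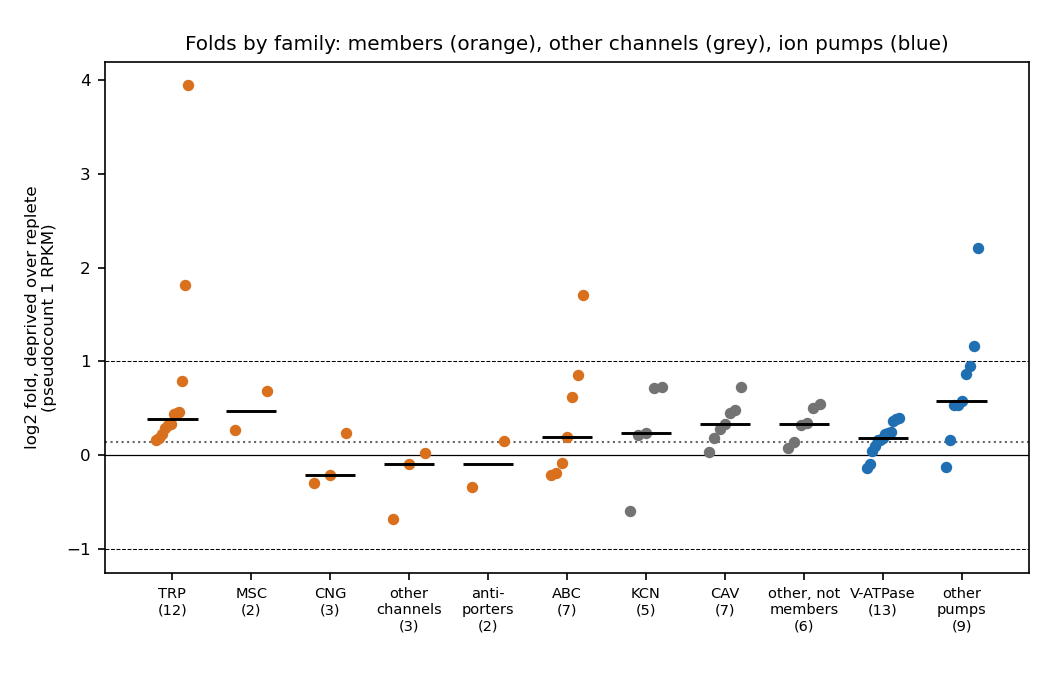
Log2 fold of deprived over replete RPKM (pseudocount of 1 RPKM) by family, with the number of genes that passed the filter in brackets. Points are genes, black bars are medians, the dotted line is the median of all genes at 0.14 and dashed lines mark 2-fold differences. The carrier list is not drawn. Among the families drawn, the genes beyond 2-fold are TRP5, TRP13, Cre17.g725150 and, among the pumps, Cre09.g410050 and Cre09.g410100.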

How the data were processed

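The authors deposited 1 table of RPKM values for 17147 gene loci, with 1 column per library that carries the code found in that library's labels. Per the submitters' processing notes Bowtie was used (version not stated there). The sources used here do not state the genome build, annotation version, counting method or filters. The groups come from the labels.

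The members, lists and naming rule were chosen with earlier results of these data known. Every member could be named, and of the pump and carrier lists the 3 largest absolute folds. Genes of the lists written after values were seen were named with those values known. Folds were computed with a pseudocount of 1 RPKM, and genes with a mean of at least 1 RPKM entered counts and medians. A ratio of 0.870 between the libraries was shared by 1246 genes. Of the 1088 that allowed the check, 1087 had values dividing the highest of them into a whole number (tolerance 0.02). Steps beside it, at 1.496 times (80 genes) and 1.504 times (86 genes, tolerance 0.001), look like 1 count added to each gene in 2 runs per library. Reads were approximated from that pattern at a length of 1000 bases. The whole numbers were read as lengths in bases, which assumes that the highest value at the shared ratio stands for 1 base. Intervals are 95% Clopper-Pearson intervals of the deprived share of both libraries' reads. Limits for genes without reads use 3 counts.

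With 1 library per condition no test across samples was made. Alternatives were a pseudocount of 0.1 or 5 RPKM, a common median, a trimmed mean (30% off the log ratio, 5% off the mean) or a common sum as the scale, no filter, and a mean of at least 5 RPKM. A fold with no pseudocount was added after the data were seen. The RefSeq table of assembly Chlamydomonas_reinhardtii_v5.5 matched 28 of the 31 members by locus tag and was used for gene order only. Python 3.11.15, pandas 2.3.3 and SciPy 1.17.1 were used, and the calculation was tested on simulated data.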

Additional observations from a re-analysis of the deposited data

How the results depend on the processing

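No replicate could be left out, and no paired analysis was possible because each condition had 1 library. Members at least 2-fold higher were TRP5, TRP13 and Cre17.g725150, and the same 3 genes were counted under the 3 scalings and with no filter. TRP9 joined them, for 4, with a pseudocount of 0.1 RPKM and with none, and TRP13 left, for 2, with 5 RPKM (log2 fold 0.83) and with a mean of at least 5 RPKM, which it does not reach. The share of all genes at least 2-fold higher moved as well, from 5.59% to 9.22% with 0.1 RPKM, 9.93% with none, 2.06% with 5 RPKM and 6.52% with the stricter filter. No member was at least 2-fold lower under any of the 8 alternatives. Medians depended on scaling. After scaling to the same median, which shifted the median of all genes by -0.21, the median log2 folds were 0.038 for all members, 0.059 for channels, -0.035 for ABC transporters, -0.017 for pumps and -0.078 for other carriers. Trimmed mean scaling gave 0.11 for members, 0.069 for pumps and -0.0047 for other carriers. Other carriers had 0.23 after scaling to a common sum and 0.10 with a pseudocount of 5 RPKM, and ABC transporters had 0.41 with a mean of at least 5 RPKM, where fewer genes are counted. The TRP median stayed between 0.19 and 0.55. Depth limits weak members, such as Cre16.g655450, which at 1000 bases would rest on 6 and 7 reads with an interval of the ratio from 0.292 to 3.66.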

Other observations

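Outside the member, pump and further channel lists, a search of the longer description found 16 genes, a list written after values were seen. The words searched were ion channel, channel domain, polycystin-2, antiporter, ABC transporter, ABC-type and sulfate-transporting. This list shares 4 genes (NHAD1, SBP1, SULP1 and SULP2) with the carrier list. All 16 passed the filter, with a median log2 fold of 0.11, 1 gene at least 2-fold higher (6.25%, beside 5.59% of all genes) and 0 lower. That gene, LCI28 (1.45 and 4.05 RPKM, 1.04), is described as an aldose reductase. The flagellar genes Cre17.g715300, weakly similar to the TRP relative polycystin-2, and FAP148, with a cation channel domain, came next. Cre17.g715300 had 22.5 RPKM with phosphate and 40.5 RPKM without it (0.82), and FAP148 had 29.2 and 48.4 RPKM (0.71). Components of the chloroplast sulfate transporter, an ABC type, had small log2 folds in the deposited values, 0.11 for SBP1, -0.11 for SULP1 and 0.03 for SULP2. Scaling to the same median shifted the median of all genes by -0.21, which is larger than these folds, so equal levels were not established. The sodium/proton antiporter gene NHAD1 had 3.92 and 2.69 RPKM (-0.42), and RLI1, an ABC protein required for ribosome biogenesis, had 58.4 and 38.8 RPKM (-0.58).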
